A study of Mus musculus with 75 samples.

Results

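The genes of bone morphogenetic protein (BMP) and transforming growth factor beta (TGF-beta) signalling were followed in the brain of mice with mutations in Dnmt3a, a gene for a DNA methyltransferase. The 50 genes were taken by name from a list of ligands, receptors, antagonists and targets and matched by symbol. The 37310 gene identifiers of the cortex and nuclei files held 49 of them, and the 55487 identifiers of the hippocampus files held all 50. Gdf1, a ligand gene, was the member without an identifier in the cortex and nuclei files, and it was listed at 0 in the 6 hippocampus libraries. Whether that 0 comes from the annotation or from the RNA was not tested, so it is not read as a level.

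In this family, dimeric ligands bring together type I and type II receptor kinases at the cell surface, and the type I kinase phosphorylates SMAD proteins, which bind Smad4 and act on genes in the nucleus. BMPs act mostly through Smad1, Smad5 and Smad9, and TGF-betas and activins mostly through Smad2 and Smad3. Secreted proteins such as noggin, chordin and follistatin bind ligands and keep them from their receptors, Smad6 and Smad7 inhibit the pathway inside the cell, and the Id genes are common BMP targets. In the brain the pathway is known for its part in the choice between neuronal and glial fates and for its activity in astrocytes, blood vessels and the choroid plexus.

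The study measured RNA at postnatal day 21 in C57BL/6 mice. The mutant groups were cortex of Dnmt3a1-/- mice (3 libraries), of Dnmt3a2-/- mice (2) and of Dnmt3a1_delta_N mice (3), hippocampus of Dnmt3a1-/- mice (3), and cortical neuron nuclei of Dnmt3a1-/- mice sorted with an antibody against NeuN, a neuronal nuclear protein (2). The wild type groups were 8 cortex libraries in 3 numbering series (3 plain, 2 marked r and 3 marked n), 3 hippocampus libraries and 2 libraries of sorted nuclei. Dnmt3a1 and Dnmt3a2 are the long and the short isoform of the gene. The labels name no Cre, promoter or cell type for the alleles, and they do not say which animals the libraries came from, so p-values measure the spread between these libraries only. Dnmt3a1-/- cortex was set against the plain series, Dnmt3a2-/- against the r series and Dnmt3a1_delta_N against the n series. The labels themselves do not tie a series to a mutant.

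The 26 libraries held 8.7 to 39 M gene counts (M, mega), and levels are given below as counts per M gene counts (CPM), a scale on which different genes cannot be compared because gene length is not taken out. Dnmt3a averaged 76.0 CPM in cortex Dnmt3a1-/- and 154 CPM in its wild type, and 73.3 CPM in hippocampus Dnmt3a1-/- and 149 CPM in its wild type. In the nuclei labelled Dnmt3a1-/- it averaged 375 CPM, against 402 CPM in wild type nuclei, a log2 fold change of -0.10 ± 0.15 (SE, adjusted p = 0.89), so the count did not follow the label there. Dnmt3a counts differed little in the cortex of Dnmt3a2-/- (log2 fold change -0.12) and Dnmt3a1_delta_N (-0.18), and a whole-gene count need not show the loss of 1 isoform or of a part of the protein. The tissue markers followed the labels. All 6 hippocampal markers were higher in wild type hippocampus than in wild type cortex, 5 of them at an adjusted p under 0.05 and at least 2-fold. Astrocyte markers summed to 555 to 758 CPM in the nuclei libraries and to 11008 to 16705 CPM in the cortex libraries. In whole tissue, fewer cells of a type and less RNA per cell cannot be told apart.

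Cortex of Dnmt3a1-/- mice was the setting in which the most members changed. Of 49 members tested with edgeR's quasi-likelihood test over all genes, 14 passed an adjusted p of 0.05, 9 higher and 5 lower than wild type. Among all 15933 genes tested, 17.9% were called, 8.95% as higher and 8.91% as lower. The members that rose were Gdf10, Bmp4, Inha, Acvr2b, Smad6, Chrd, Wfikkn2, Bmp1 and Id4, and those that fell were Bmp3, Gdf11, Acvr1, Acvr1b and Chrdl1. The median log2 fold change was 0.01 over the members and 0.01 over all genes. The change was therefore spread over ligands, receptors, an inhibitory SMAD, binding proteins and 1 target, in both directions. The 2 groups of libraries stood fully apart in 23 of the 49 members (46.9%) and in 36.1% of all genes. Among the 14, which the test had picked, they did so in 13. With a block for the replicate number, 22 members passed, where 31% of all genes did, and 13 of the 22 were among the 14. They were 13 higher and 9 lower, beside 15.1% and 16% of all genes. Leaving out wild type library 3 gave 9 called members, and 9.86% of all genes.

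**Figure D1:**
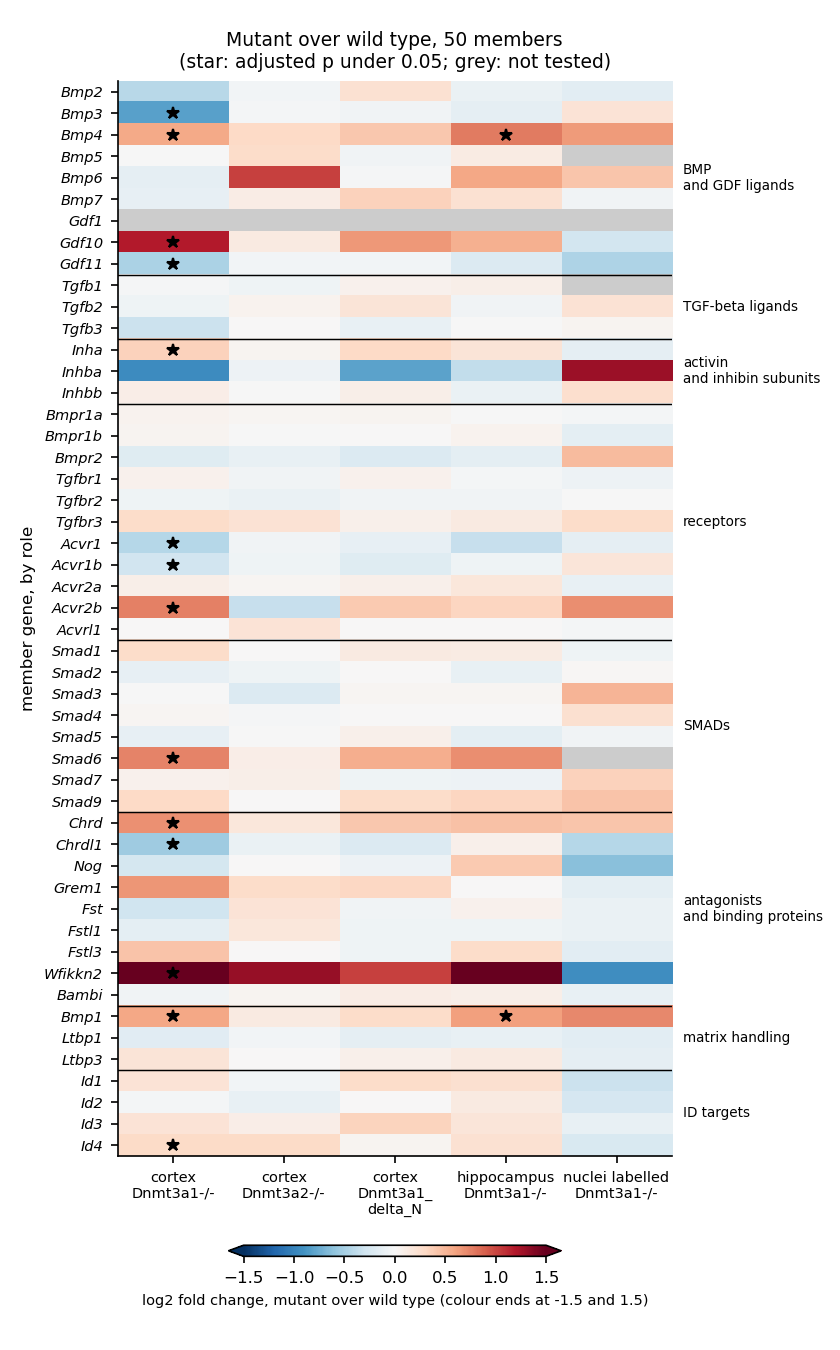
Log2 fold change of mutant over wild type for each of the 50 members (rows, grouped by role) in 5 comparisons (columns). Red is higher and blue lower in the mutant, a star marks an adjusted p under 0.05 and grey a member not tested. Stars stand on 14 members in cortex Dnmt3a1-/-, on Bmp4 and Bmp1 in hippocampus Dnmt3a1-/-, and on none in the other columns. The fits shown held no replicate block.

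Gdf10, Chrd, Bmp4, Bmp1 and Smad1 had every mutant library above every wild type library in cortex and hippocampus of Dnmt3a1-/- mice. The same held in cortex Dnmt3a1_delta_N, although not every difference passed the test. Smad1 passed in none of these comparisons without the replicate block. It had 15.2 to 16.7 CPM in hippocampus Dnmt3a1-/-, against 14.3 to 15.0 CPM in wild type. In cortex Dnmt3a1_delta_N it had 16.4 to 18.8 CPM, against 15.4 to 16.3 CPM in wild type. Of all genes tested, 2927 of 15933, 2190 of 15727 and 911 of 15881 stood fully above wild type in these comparisons. How many did so in all of them was not counted. Cytosines that are followed by guanine are among the sites at which the Dnmt3a enzyme acts. The 250 bases before the RefSeq transcription starts of Gdf10, Chrd and Bmp4, a pair of ligands and a BMP binder, are therefore shown (those of Bmp1 and Smad1 are not). They are written 5′ to 3′ on the gene's own strand with each CG in capitals, and positions are in build GRCm38.p6, not the mm9 build of the counts. The Gdf10 stretch is chr14:33923337-33923586 (+ strand), the Chrd stretch chr16:20732877-20733126 (+ strand) and the Bmp4 stretch chr14:46390670-46390919 (- strand).
Gdf10: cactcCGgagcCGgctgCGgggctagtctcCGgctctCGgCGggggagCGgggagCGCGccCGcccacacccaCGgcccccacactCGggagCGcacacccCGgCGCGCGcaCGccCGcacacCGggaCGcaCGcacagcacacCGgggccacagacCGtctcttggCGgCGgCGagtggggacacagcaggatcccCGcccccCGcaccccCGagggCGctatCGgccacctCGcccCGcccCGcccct
Chrd: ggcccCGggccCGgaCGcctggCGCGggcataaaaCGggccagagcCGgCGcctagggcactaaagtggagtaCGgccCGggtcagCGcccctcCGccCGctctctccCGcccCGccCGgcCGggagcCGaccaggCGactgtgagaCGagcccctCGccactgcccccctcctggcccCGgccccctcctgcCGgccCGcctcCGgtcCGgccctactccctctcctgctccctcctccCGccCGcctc
Bmp4: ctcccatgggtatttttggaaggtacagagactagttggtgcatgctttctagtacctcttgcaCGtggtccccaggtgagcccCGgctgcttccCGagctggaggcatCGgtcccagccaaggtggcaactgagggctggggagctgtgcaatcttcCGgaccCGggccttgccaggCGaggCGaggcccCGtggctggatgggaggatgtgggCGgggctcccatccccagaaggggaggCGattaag

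The Gdf10 stretch held 35 CG and was 78.8% G and C, and 97% of all 32851 RefSeq stretches of this length held fewer CG. The Chrd stretch held 28 CG (92.4% held fewer) and the Bmp4 stretch 11 (64.4% held fewer). The median was 21.5 CG over the 42 stretches of the 35 members that matched, and 6 over all stretches. GGCGCC, a palindrome known from BMP response elements, was in 23.8% of the member stretches and in 9.59% of all, and once in Chrd. It is made of G and C only, holds a CG itself and reads the same on both strands. Stretches of like CG number were not compared, so the higher share is not read as a surplus of response elements. GTCTAGAC, the palindrome known as the SMAD binding element, was in none of the 42 and in 0.167% of all. DNA methylation at these stretches was not analysed here.

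Among the 8 BMP and GDF ligand genes tested in cortex Dnmt3a1-/-, Gdf10 and Bmp4 rose and Bmp3 and Gdf11 fell. Gdf10 (BMP3b), a ligand known from astrocytes and Bergmann glia, had 22.0, 22.5 and 22.9 CPM in Dnmt3a1-/- libraries, against 9.82, 10.6 and 9.06 CPM in wild type. Each mutant library held about as much as the others, and the lowest was above the highest wild type library. The log2 fold change was 1.19 ± 0.09 (SE, adjusted p = 1.3e-05), a 2.28-fold higher level. Bmp4, a classical BMP, had 11.1, 9.75 and 11.2 CPM in Dnmt3a1-/-, against 7.89, 7.38 and 6.13 CPM in wild type (log2 fold change 0.57 ± 0.12, adjusted p = 0.0069). These groups did not overlap either.

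Bmp3, a ligand known to oppose other BMPs, had 4.0, 4.95 and 4.02 CPM in Dnmt3a1-/- cortex, against 6.30, 8.80 and 8.04 CPM in wild type (log2 fold change -0.82 ± 0.16, adjusted p = 0.0038). Gdf11, a ligand close to myostatin, had 21.5, 21.6 and 15.9 CPM in Dnmt3a1-/-, against 28.2, 26.1 and 27.1 CPM in wild type (-0.48 ± 0.11, adjusted p = 0.0094). In both genes every mutant library was below every wild type library. Bmp3 and Gdf10 are each other's closest relatives in the family, and they went in opposite directions. The other 4 BMP genes had log2 fold changes of -0.42 (Bmp2), -0.01 (Bmp5), -0.14 (Bmp6) and -0.12 (Bmp7) and did not pass. Bmp2 passed with the replicate block (adjusted p = 0.047) and without mutant library 3 (0.026).

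None of the 3 TGF-beta ligand genes passed in cortex Dnmt3a1-/-, with log2 fold changes from -0.32 (Tgfb3, adjusted p = 0.089) to -0.02 (Tgfb1). Tgfb3 passed with the replicate block (adjusted p = 0.019) and with no filter on low counts (0.037). It also passed against all 8 wild type cortex libraries (0.017) and without mutant library 2 (0.03). Of the activin and inhibin subunit genes, Inha, whose product forms inhibin with a beta subunit, had 16.8, 19.5 and 15.7 CPM in Dnmt3a1-/-, against 13.0, 15.1 and 12.8 CPM in wild type (0.34 ± 0.11, adjusted p = 0.042). The groups did not overlap, and the call was lost without mutant library 1 or 2 or wild type library 1 or 3 (adjusted p from 0.061 to 0.21). Inhba, the activin A subunit and a gene induced by neuronal activity, had 0.255, 0.838 and 1.06 CPM in Dnmt3a1-/-, against 1.35, 1.64 and 1.69 CPM in wild type, from 3 to 44 counts a library. Its log2 fold change of -0.94 ± 0.31 missed the threshold (adjusted p = 0.052). It passed with the block (0.0078), without mutant library 3 (0.031) and without wild type library 1 (0.042). With no filter on low counts (0.0089) and against all 8 wild type cortex libraries (0.029) Inhba passed as well. Inhbb had a log2 fold change of 0.10.

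Of 11 receptor genes, Acvr2b rose and Acvr1 and Acvr1b fell in cortex Dnmt3a1-/-. Acvr2b, an activin type II receptor, had 2.98, 2.59 and 2.54 CPM in Dnmt3a1-/-, against 1.68, 1.98 and 0.956 CPM in wild type (0.75 ± 0.23, adjusted p = 0.037). Acvr1 (ALK2), a BMP type I receptor, had 20.5, 28.1 and 25.6 CPM in Dnmt3a1-/-, against 32.4, 32.2 and 36.1 CPM in wild type (-0.43 ± 0.11, adjusted p = 0.016). In both genes the groups stood apart. Leaving out any library other than wild type library 2 lost the Acvr2b call (adjusted p from 0.056 to 0.12). Acvr1 missed the threshold without wild type library 3 (0.068). Acvr1b (ALK4), the main activin type I receptor, had 50.9, 54.4 and 60.1 CPM in Dnmt3a1-/-, against 59.8, 72.1 and 70.9 CPM in wild type (-0.29 ± 0.09, adjusted p = 0.038), and it was the called member whose groups overlapped. Its call was lost without mutant library 1 or 2 or wild type library 2 or 3 (adjusted p from 0.12 to 0.14). The 8 other receptor genes, among them the BMP receptors Bmpr1a and Bmpr1b and the TGF-beta receptors Tgfbr1 and Tgfbr2, lay between -0.18 (Bmpr2) and 0.27 (Tgfbr3) on the log2 scale. Bmpr2 and Tgfbr3 passed with the block (adjusted p = 0.020 and 0.027).

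Among the 8 SMAD genes, Smad6 was the 1 called in cortex Dnmt3a1-/-. This inhibitory SMAD, itself a BMP target and prominent in blood vessels, had 4.85, 7.43 and 5.08 CPM in Dnmt3a1-/-, against 4.13, 3.76 and 2.47 CPM in wild type (0.74 ± 0.20, adjusted p = 0.023). Mutant library 2 stood highest and wild type library 3 lowest, and the adjusted p was 0.13 without the first and 0.076 without the second. The signal-carrying SMADs had log2 fold changes from -0.12 (Smad2 and Smad5) to 0.30 (Smad9), with Smad3 at -0.01 and Smad4 at 0.03. Smad1 (0.27) and Smad9 (0.30) had every mutant library above every wild type library and passed with the block (adjusted p = 0.014 and 0.035). Smad9 also passed against all 8 wild type cortex libraries (0.02).

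Antagonists went both ways. Chrd (chordin, which binds BMPs) had 60.9, 70.8 and 56.9 CPM in Dnmt3a1-/- cortex, against 34.3, 43.8 and 39.5 CPM in wild type (0.68 ± 0.10, adjusted p = 0.0012). Chrdl1 (chordin-like 1, also a BMP binder, and known as a protein that astrocytes secrete) had 38.5, 40.0 and 50.6 CPM in Dnmt3a1-/-, against 63.6, 62.9 and 60.7 CPM in wild type (-0.53 ± 0.09, adjusted p = 0.0027). Both genes had groups that did not overlap, so 2 related BMP binders differed in direction. Nog, Grem1, Fst, Fstl1, Fstl3 and Bambi, which encode noggin, gremlin 1, follistatin, its relatives and a receptor decoy, did not pass, with log2 fold changes from -0.30 (Fst) to 0.66 (Grem1). Grem1 passed against all 8 wild type cortex libraries (adjusted p = 0.027).

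Wfikkn2, whose product binds the ligands Gdf11 and myostatin, had the highest fold of the members in cortex Dnmt3a1-/- and the widest spread. It had 20.6, 8.54 and 15.5 CPM in Dnmt3a1-/-, against 2.66, 3.06 and 0.956 CPM in wild type (log2 fold change 2.63 ± 0.50, adjusted p = 0.028). The groups did not overlap, but the call was lost with the replicate block (adjusted p = 0.10) and with no filter on low counts (0.057). It was also lost without mutant library 3 (0.077) or wild type library 1 (0.11) or 2 (0.081). The 12 choroid plexus markers summed to 2035, 835 and 1225 CPM in the same Dnmt3a1-/- libraries, against 534, 764 and 126 CPM in wild type. Wfikkn2 thus ranked the 6 libraries in the same order as the markers did. Mutant library 2, at 835 CPM of markers, held 8.54 CPM of Wfikkn2, and wild type library 2, at 764 CPM, held 3.06 CPM. All 12 markers had positive log2 fold changes (median 0.92) and none was called. Their part in the Wfikkn2 difference, here or in the other comparisons, was not tested.

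**Figure D2:**
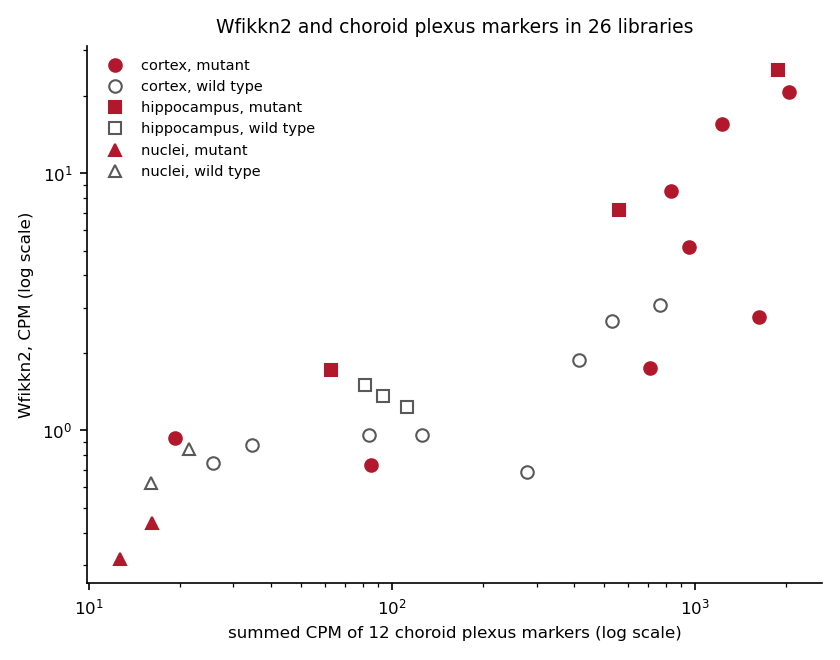
Wfikkn2 (CPM, log scale) against the summed CPM of 12 choroid plexus markers (log scale) in each of 26 libraries, filled for mutant and open for wild type, with circles for cortex, squares for hippocampus and triangles for nuclei. Libraries with more marker signal tended to hold more Wfikkn2, up to 25.2 CPM in hippocampus Dnmt3a1-/- library 2, and the 4 nuclei libraries lie at the low end of both axes. Single libraries departed from this order. For example, cortex Dnmt3a2-/- library 2 had 1628 CPM of markers and 2.77 CPM of Wfikkn2, and cortex Dnmt3a1-/- library 3 had 1225 and 15.5 CPM. Whether groups differ at a given marker signal was not tested.

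Bmp1, despite its name a protease that trims procollagen and cleaves chordin, had 124, 122 and 107 CPM in Dnmt3a1-/- cortex, against 72.5, 86.3 and 76.5 CPM in wild type (0.58 ± 0.08, adjusted p = 0.00063). The genes of the latent TGF-beta binding proteins differed less, at -0.17 for Ltbp1 and 0.19 for Ltbp3, and Ltbp3 passed with the block (adjusted p = 0.036). Of the 4 Id genes, which encode inhibitors of helix-loop-helix factors, Id4 rose. It had 56.2, 55.8 and 59.1 CPM in Dnmt3a1-/-, against 49.0, 45.3 and 45.8 CPM in wild type (0.29 ± 0.07, adjusted p = 0.0097), and an adjusted p of 0.054 without wild type library 2. Id1 (0.20), Id2 (-0.03) and Id3 (0.21) did not pass, and Id3 passed with the block (adjusted p = 0.012) and without mutant library 3 (0.025).

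Other cell type markers also differed between these libraries. Neuron markers summed to 3343 to 3619 CPM in cortex Dnmt3a1-/- and to 3718 to 4255 CPM in wild type, with 4 of 8 called lower. The 1 neuron marker with a positive log2 fold change was Rbfox3, at 144, 157 and 140 CPM, against 124, 139 and 133 CPM in wild type. Meninges and mural cell markers summed to 491 to 555 CPM in Dnmt3a1-/- and to 612 to 905 CPM in wild type, with 3 of 12 called lower. Endothelial markers summed to 703 to 771 CPM in Dnmt3a1-/- and to 793 to 915 CPM in wild type, with 3 of 8 called lower. Astrocyte markers summed to 15881 to 16705 CPM in Dnmt3a1-/- and to 14716 to 16068 CPM in wild type, with 3 of 8 called higher and 1 lower. Oligodendrocyte markers summed to 19349 to 23108 CPM in Dnmt3a1-/- and to 16797 to 19843 CPM in wild type, with 2 of 8 called higher. Of the markers of microglia 1 of 8 was called lower, of cortex layers 1 of 6 higher and 1 lower, and of hippocampus 1 of 6 lower. What these shifts contribute to the members' differences was not tested.

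Set against all 8 wild type cortex libraries, 14 of the 49 members tested (28.6%) lay outside the whole wild type range, and 20.4% of all genes did. Of the 14 called members 8 were among them. Gdf10, Bmp4, Chrd, Acvr2b and Wfikkn2 were above it and Bmp3, Acvr1 and Chrdl1 below it. The other 6 were uncalled members, with Tgfbr3, Smad1, Smad9 and Grem1 above the range and Inhba and Smad2 below it. Gdf10, for example, had 22.0 to 22.9 CPM in Dnmt3a1-/- and 6.41 to 11 CPM over the 8. Bmp1 was the clearest case of the opposite, with 107 to 124 CPM in Dnmt3a1-/- and 72.5 to 137 CPM over the 8. The n series held the highest wild type values, 137 and 125 CPM in libraries 1 and 2. Tested against all 8, 15 members passed, where 18.9% of all genes did, 11 of them shared with the 14, and Bmp1 (adjusted p = 0.29), Id4 (0.13) and Inha (0.14) did not.

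**Figure D3:**
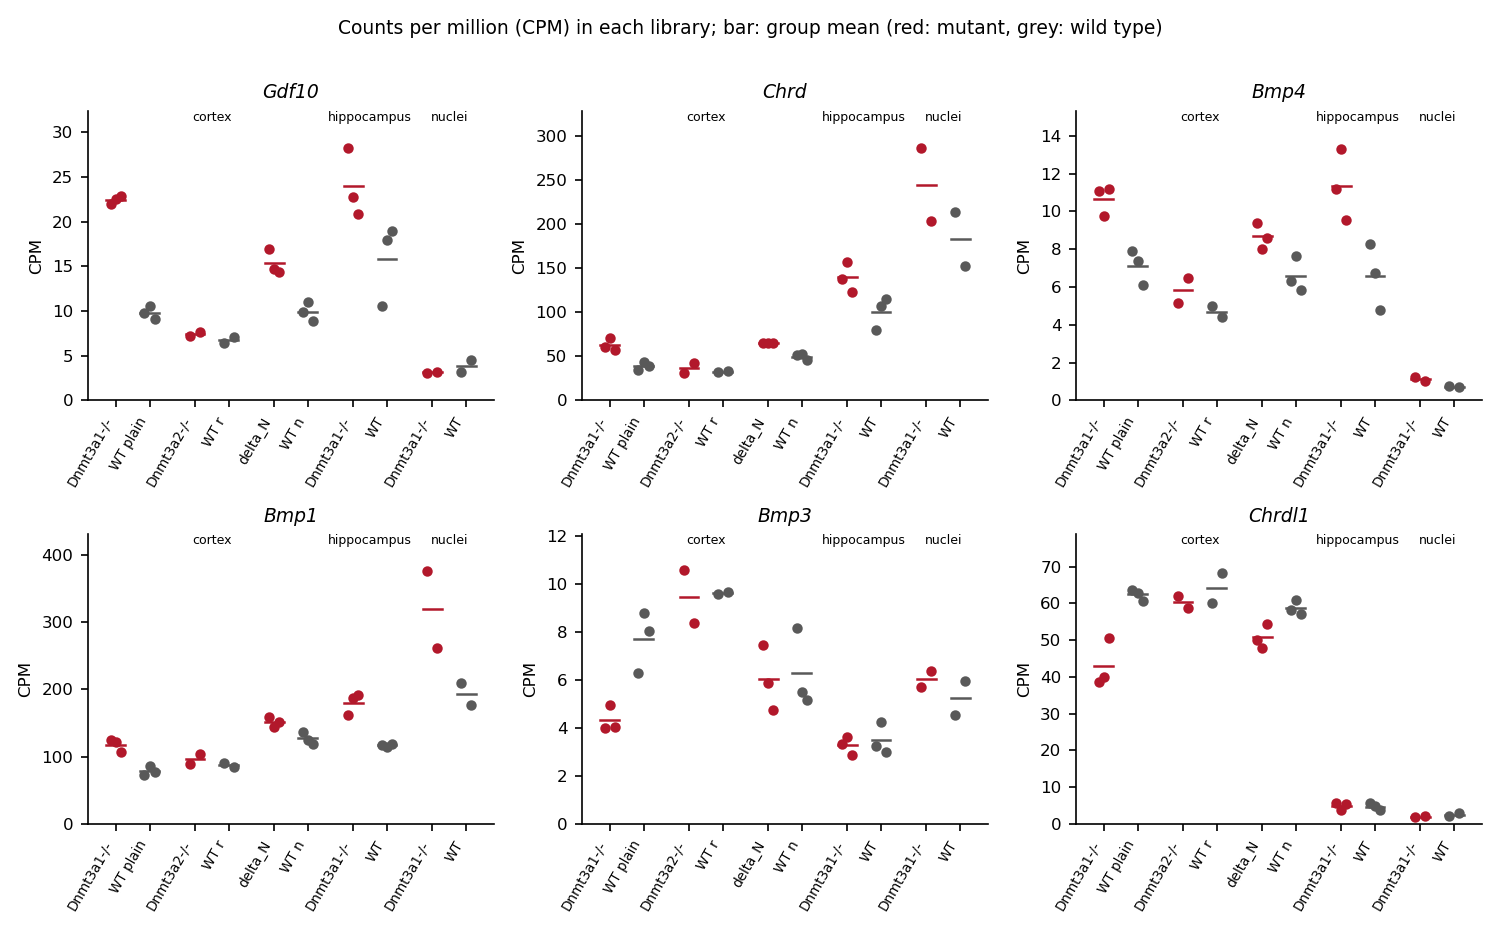
CPM of 6 members in each library (points) with group means (bars), red for mutant and grey for wild type, each mutant left of its own wild type. Gdf10 in cortex Dnmt3a1-/- lies at 22.0 to 22.9 CPM, above all 8 wild type cortex libraries. Chrdl1 is near 60 CPM in wild type cortex and at 5.63 CPM or less in hippocampus and nuclei.

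In hippocampus of Dnmt3a1-/- mice, 2 of 49 members tested were called, both higher, against 2.52% of the 15727 genes tested, 1.69% as higher. At an unadjusted p under 0.05 there were 8 members, where 18% of all genes lay, and DESeq2 called 3, where it called 3.98% of all genes. With no filter on low counts edgeR called 5 (Gdf10, Chrd and Acvr1 added), where 3.33% of all genes passed. Bmp1 had 162.6, 186.5 and 192.1 CPM in Dnmt3a1-/-, against 116.5, 113.8 and 119.2 CPM in wild type (log2 fold change 0.61 ± 0.09, adjusted p = 0.0060). Bmp4 had 11.2, 13.3 and 9.55 CPM in Dnmt3a1-/-, against 8.30, 6.73 and 4.78 CPM in wild type (0.78 ± 0.19, adjusted p = 0.047). The groups did not overlap in either gene, which was so for 22.3% of all genes. Bmp4 missed the threshold when any of the 3 mutant libraries or wild type library 2 or 3 was left out (adjusted p from 0.062 to 0.19), which leaves 1 called member. Without wild type library 1, Acvr1 passed as well (0.047), where 783 of 16012 genes passed.

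The other members called in cortex did not pass in the hippocampus. Gdf10 had 28.2, 22.8 and 20.9 CPM in Dnmt3a1-/-, against 10.6, 17.9 and 19.0 CPM in wild type (0.53 ± 0.18, adjusted p = 0.14). Chrd had 138, 158 and 124 CPM in Dnmt3a1-/-, against 80.0, 107 and 115 CPM in wild type (0.44 ± 0.13, adjusted p = 0.082), and DESeq2 called it (0.032). Neither gene's groups overlapped, but wild type library 1 was the lowest of its group in both.

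Acvr1 had 40.0, 37.5 and 32.1 CPM in hippocampus Dnmt3a1-/-, against 43.6, 47.1 and 45.0 CPM in wild type (-0.34 ± 0.09, adjusted p = 0.067), and Smad6 had 3.96, 4.92 and 3.92 CPM, against 2.65, 2.92 and 2.18 CPM in wild type (0.70 ± 0.21, adjusted p = 0.094). Wfikkn2 had 7.22, 25.2 and 1.72 CPM in Dnmt3a1-/-, against 1.5, 1.23 and 1.36 CPM in wild type (3.02 ± 1.28, adjusted p = 0.33). The choroid plexus markers summed to 560, 1875 and 62.8 CPM in those mutant libraries, against 81.7, 112 and 93.6 CPM in wild type. Mutant library 2 was thus the highest in both and library 3 the lowest of its group in both. Of the 14 members called in cortex, 13 had the same sign in hippocampus, Chrdl1 being the exception at 0.08, while 94% of all genes called in cortex kept their sign. The 2 comparisons share no library. Whether both tissues came from the same animals is not stated.

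**Figure D4:**
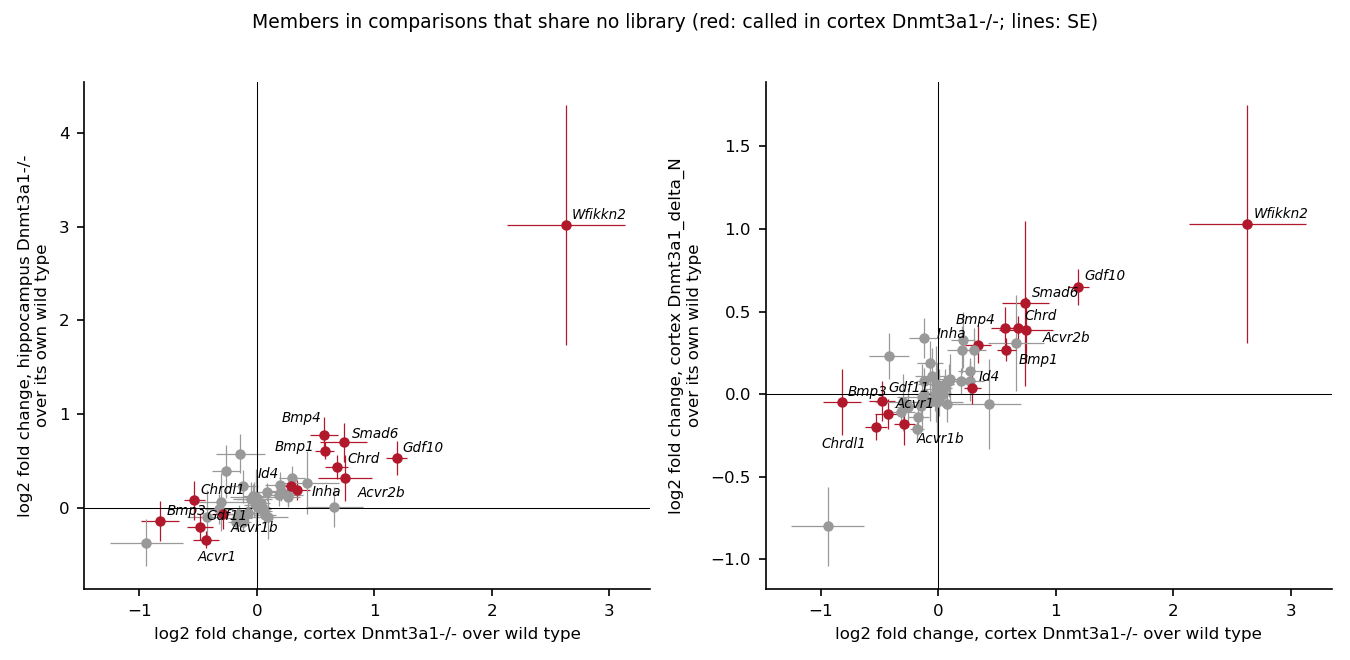
Log2 fold change of each member in hippocampus Dnmt3a1-/- (left) and in cortex Dnmt3a1_delta_N (right) against that in cortex Dnmt3a1-/-, each over its own wild type, with SE lines. Red points are the 14 members called in cortex Dnmt3a1-/-, which lie mostly to the upper right and lower left of the origin. Their changes are smaller on the vertical than on the horizontal axis, except for Bmp4, Bmp1 and Wfikkn2 on the left.

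In cortex Dnmt3a1_delta_N no member was called by the fit without a replicate block, and neither was any of the 15881 genes tested (0%). At an unadjusted p under 0.05 there were 9 members, where 7.98% of all genes lay, and DESeq2 called 1 member, Chrd (adjusted p = 0.0025), of the 24 to which it gave an adjusted p, and 0.58% of all genes. With no filter on low counts 2 passed, Gdf10 and Chrd, and 0.0706% of all genes. Same-numbered libraries deviated together here, and with the replicate block 2 members passed against 0.749% of all genes. Gdf10 had 17.0, 14.7 and 14.4 CPM in Dnmt3a1_delta_N, against 9.85, 11 and 8.89 CPM in wild type (log2 fold change 0.65 ± 0.11, adjusted p = 0.34, with the block 0.0088). Chrd had 65.2, 65.5 and 65.2 CPM in Dnmt3a1_delta_N, against 51.7, 52.3 and 45.5 CPM in wild type (0.40 ± 0.07, adjusted p = 0.34, with the block 0.012). Both genes lay above all 8 wild type cortex libraries in each mutant library.

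Bmp4 had 9.38, 8.03 and 8.62 CPM in cortex Dnmt3a1_delta_N, against 6.34, 7.65 and 5.82 CPM in wild type (0.40 ± 0.13, adjusted p = 0.55), and Bmp1 had 159, 144 and 152 CPM, against 137.2, 125.1 and 119.02 CPM in wild type (0.27 ± 0.07, adjusted p = 0.46). Chrdl1 had 50.1, 47.7 and 54.3 CPM, against 58.3, 61.0 and 57.2 CPM in wild type (-0.20 ± 0.08, adjusted p = 0.58). In these 3 genes the groups did not overlap, which was so for 12.8% of all genes, and none passed the test. Bmp3, by contrast, had 7.47, 5.89 and 4.75 CPM, against 8.17, 5.50 and 5.16 CPM in wild type (-0.05 ± 0.20), with the groups mixed.

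The remaining members called in cortex Dnmt3a1-/- had log2 fold changes in Dnmt3a1_delta_N between -0.18 (Acvr1b) and 1.03 (Wfikkn2, 5.18, 1.75 and 0.730 CPM against 0.955, 1.87 and 0.878 CPM in wild type). All 14 had the sign they had in Dnmt3a1-/-, where 86.5% of all genes called in Dnmt3a1-/- kept theirs. Choroid plexus markers summed to 958, 710 and 85.6 CPM in the Dnmt3a1_delta_N libraries, against 84.2, 413 and 34.6 CPM in wild type. Wfikkn2 was again highest in the library with the most marker signal. Mutant library 2, with 710 CPM of markers, held less Wfikkn2 than wild type library 2 with 413 CPM.

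The difference between the 2 cortex effects was tested directly. Dnmt3a1_delta_N minus Dnmt3a1-/- gave no called member, against 0.107% of the 15901 genes tested, and 7 members at an unadjusted p under 0.05, where 11.4% of all genes lay. DESeq2 was not run for differences of effects. The effect on Gdf10 differed by -0.54 ± 0.14 on the log2 scale (adjusted p = 0.18), and that on Bmp3 differed by 0.77 ± 0.28 (adjusted p = 0.32). With the replicate block both passed, at adjusted p = 0.036 for Gdf10 and 0.016 for Bmp3, where 2.95% of all genes did. Without Dnmt3a1_delta_N library 1 Gdf10 passed (0.044), where 165 of 16133 genes did. Hippocampus minus cortex in Dnmt3a1-/- gave no called member either (0% of 15433 genes), with 6 members at an unadjusted p under 0.05, where 5.03% of all genes lay, among them Gdf10 (-0.66 ± 0.22, adjusted p = 0.80) and Chrdl1 (0.63 ± 0.22, adjusted p = 0.82).

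In cortex Dnmt3a2-/- no member was called, against 0.00628% of the 15929 genes tested, which is 1 gene. DESeq2 called no member (0.0303% of all genes), 2 passed with no filter on low counts (Bmp6 and Wfikkn2, 0.277% of all genes), and 3 had an unadjusted p under 0.05 (Bmp6, Wfikkn2 and Id4), where 2.87% of all genes lay. Gdf10 had 7.22 and 7.65 CPM in Dnmt3a2-/-, against 6.41 and 7.07 CPM in wild type (0.13 ± 0.15), and Chrd had 31.6 and 42.3 CPM, against 32.2 and 32.9 CPM in wild type (0.17 ± 0.13). The Gdf10 libraries lay just above their wild type, and the Chrd groups overlapped. Bmp6, a BMP known from endothelium and iron control and named here after its values were seen, had 4.54 and 6.34 CPM in Dnmt3a2-/-, against 2.68 and 2.63 CPM in wild type (1.02 ± 0.21, adjusted p = 0.45, with the replicate block 0.0031, where 0.345% of all genes passed). The 8 wild type cortex libraries spanned 2.63 to 8.83 CPM for Bmp6, which includes both mutant libraries.

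With 2 libraries a group the test in Dnmt3a2-/- rests on few values. Choroid plexus markers summed to 19.2 and 1628 CPM in the Dnmt3a2-/- libraries, against 280 and 25.7 CPM in wild type, and Wfikkn2 had 0.933 and 2.77 CPM, against 0.688 and 0.744 CPM in wild type. Without Dnmt3a2-/- library 1, 3 members passed (Bmp6, Wfikkn2 and Id3, 0.557% of all genes), and without library 2, 1 passed (Id4, 0.848% of all genes). Of the 14 members called in cortex Dnmt3a1-/-, 13 had the same sign in Dnmt3a2-/- (all genes 74%), Acvr2b being the exception at -0.35, but their median, with the sign of the Dnmt3a1-/- change, was 0.10. It was 0.28 in Dnmt3a1_delta_N and 0.33 in hippocampus Dnmt3a1-/-, and over all genes called in cortex Dnmt3a1-/- the same medians were 0.07, 0.12 and 0.25.

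In the nuclei labelled Dnmt3a1-/-, none of the 46 members tested was called, against 0.246% of the 15860 genes tested. Bmp5, Tgfb1 and Smad6 had too few counts to test. At an unadjusted p under 0.05 there were 8 members, where 8.98% of all genes lay, and DESeq2 called 1, Bmp1 (adjusted p = 0.028), and 0.414% of all genes. With no filter on low counts 2 passed, Inhba and Bmp1, and 1.02% of all genes. Without mutant library 2, 4 passed (Inhba, Smad3, Chrd and Bmp1), and 2.23% of all genes. A block for the replicate number let 5 members pass, where 4.67% of all genes did, but 2 pairs are too few to tell whether the numbers pair the nuclei. Bmp1 had 377 and 262 CPM in nuclei labelled Dnmt3a1-/-, against 210 and 177 CPM in wild type nuclei (log2 fold change 0.72 ± 0.18, adjusted p = 0.12). Chrd had 286 and 204 CPM, against 215 and 153 CPM in wild type nuclei (0.42 ± 0.19, adjusted p = 0.55). Library 1 was the higher in both groups for both genes, and the Chrd groups overlapped.

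Inhba, named after its values were seen, had 3.89 and 3.13 CPM in the nuclei labelled Dnmt3a1-/-, against 1.22 and 1.69 CPM in wild type nuclei (1.28 ± 0.27, adjusted p = 0.072). In whole cortex Dnmt3a1-/- and Dnmt3a1_delta_N its libraries were below wild type (log2 fold changes -0.94 and -0.80). Gdf10 had 3.12 and 3.16 CPM, against 3.13 and 4.52 CPM in wild type nuclei (-0.28 ± 0.24), so the higher level seen in whole cortex was not seen in sorted nuclei. That difference between the preparations was not tested. Of 13 members called in cortex Dnmt3a1-/- and tested in nuclei, 7 had the same sign, and 71.9% of all genes called in cortex did.

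Wild type libraries show in which preparation each member was read. Against the 8 wild type cortex libraries, 29 of 49 members differed in the 2 wild type nuclei libraries at an adjusted p under 0.05 and at least 2-fold, 8 higher and 21 lower. The rule called 51.7% of all 16625 genes, 24.5% as higher and 27.3% as lower. Sorting, nuclear against whole-cell RNA and sequencing run cannot be told apart in this comparison. The median log2 fold change was -0.66 over the members and -0.03 over all genes.

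Most ligand genes, receptors and targets were lower in nuclei. Among the BMP and GDF ligands 6 of 8 tested were lower, such as Bmp7, with 0.455 and 0.565 CPM in nuclei, against 6.93 to 14.3 CPM (median 8.50) in cortex. All 4 Id genes were lower, from -4.93 ± 0.24 for Id3 to -1.18 ± 0.16 for Id2 on the log2 scale. Of the receptors, Tgfbr2 (-4.13 ± 0.16), Bmpr2 (-3.57 ± 0.18), Acvrl1 (-3.44 ± 0.25), an endothelial receptor, Bmpr1b, Tgfbr1 and Bmpr1a were lower. Tgfb1, known from microglia, had 1 and 3 counts in the nuclei libraries and 151 to 337 counts in the cortex libraries, and Smad6 had 2 and 1 counts in the nuclei and 44 to 139 counts in the cortex libraries. Chrdl1 fell to 2.05 and 2.99 CPM in nuclei, against 57.2 to 68.3 CPM in cortex.

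The 8 members higher in nuclei were the subunit gene Inha, the receptor Acvr2a, Smad1 and Smad3, and the antagonists Chrd, Grem1, Fst and Fstl3. Inha had 99.7 and 87.8 CPM in wild type nuclei, against 12.8 to 18.2 CPM in cortex (log2 fold change 2.41 ± 0.11). Acvr2a had 267 and 290 CPM in nuclei, against 39.2 to 59.8 CPM in cortex (2.31 ± 0.12). Chrd had 215 and 153 CPM in nuclei, against 32.2 to 52.3 CPM in cortex (1.90 ± 0.17), and Gdf10 3.13 and 4.52 CPM, against 6.41 to 11 CPM (-1.5 ± 0.22). Of the pair that rose together in cortex Dnmt3a1-/-, Chrd was thus higher and Gdf10 lower in neuronal nuclei. Smad3, at 1.02 ± 0.09, was just past 2-fold and came out under it in 6 of the 7 alternatives tried. Ltbp1, at -1.04 among those lower, missed 2-fold in 3 of them (-0.99 to -0.81).

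**Figure D5:**
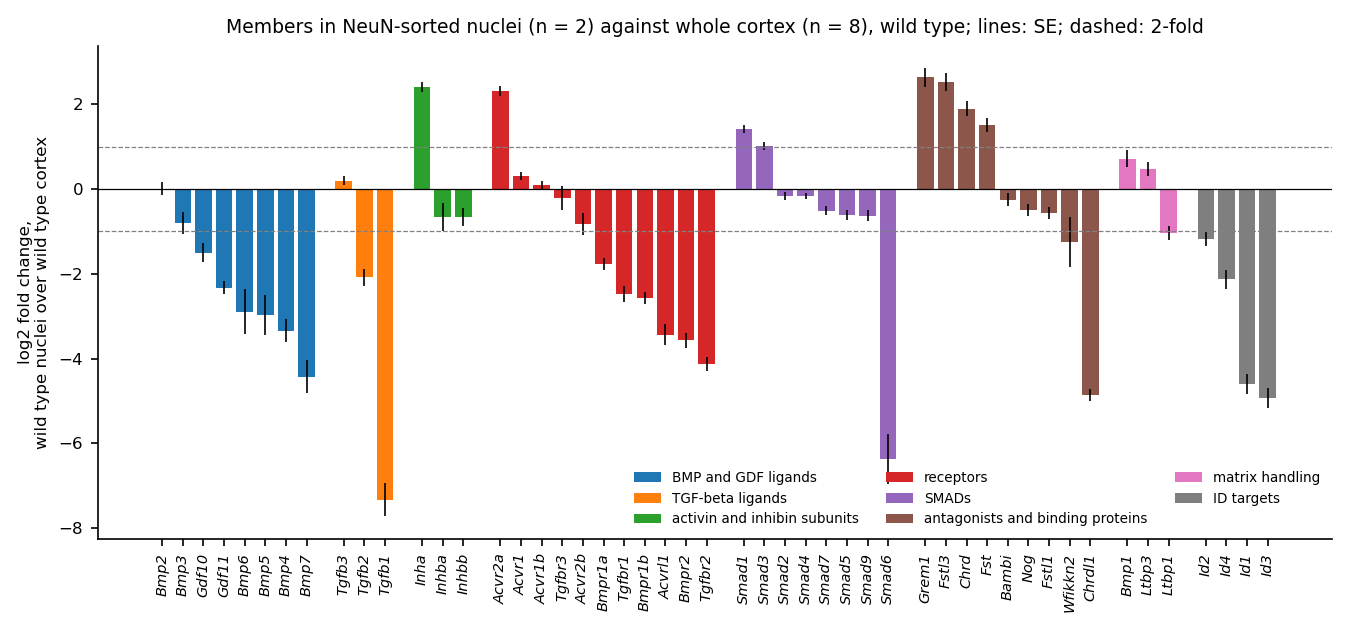
Log2 fold change of 49 members in wild type NeuN-sorted nuclei (n = 2) over wild type cortex (n = 8), with SE lines, ordered by role and by size within a role. Dashed lines mark 2-fold. The bars of Tgfb1 and Smad6 rest on at most 3 counts in each nuclei library. All 4 Id targets lie below the lower dashed line, and 4 antagonists lie above the upper one.

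Wild type hippocampus differed from wild type cortex in 10 members at the same thresholds, 6 higher and 4 lower, against 11% of the 15861 genes tested, 5.18% as higher and 5.84% as lower. Bmpr2, the BMP type II receptor, had 155, 179 and 169 CPM in hippocampus, against 44.9 to 61.6 CPM in cortex (log2 fold change 1.67 ± 0.10). Chrdl1 had 5.53, 4.71 and 3.82 CPM in hippocampus, against 57.2 to 68.3 CPM in cortex (-3.77 ± 0.11). The groups lay far apart in both. Higher in hippocampus were also Tgfb2 (1.40), Grem1 (1.94), Chrd (1.25), Inhba (1.16) and Acvr2b (1.02), and lower Nog (-2.07), Fst (-1.79) and Bmp3 (-1.15). Inhba was not called against the r series alone (0.54, adjusted p = 0.11) or without hippocampus library 3 (0.87, 0.057). Acvr2b fell short of 2-fold without hippocampus library 1 (0.78) and in 3 other alternatives. Against the n series alone Bmp3 was under 2-fold (-0.85) and Chrd at its edge (1.00, not called). Of the members called in cortex Dnmt3a1-/-, Chrdl1 and Bmp3 were those called lower in wild type hippocampus. Their log2 fold changes in hippocampus Dnmt3a1-/- were 0.08 and -0.14. A link between the wild type level and the mutant change was not tested. The hippocampus files use another gene annotation, so the comparison covers shared identifiers only.

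Other genes of the pathway were followed through a list of 78, of which 77 had an identifier. In cortex Dnmt3a1-/- 57 were tested, 3 were called higher and 3 lower, which is 10.5% of the list and below the 17.9% of all genes. Ccn2 (CTGF), a classical TGF-beta target, averaged 71.0 CPM in Dnmt3a1-/- and 43.9 CPM in wild type (log2 fold change 0.70 ± 0.17, adjusted p = 0.038). Tab1, an adaptor of the TGF-beta activated kinase, and Smurf1, a ubiquitin ligase for SMADs and receptors, rose by less (0.30 and 0.21). Among those called lower were Rgmb (-0.29), a BMP co-receptor, and Nrep (-0.36). In hippocampus Dnmt3a1-/- Ccn2 was the 1 gene called among 57, with 42.9 CPM in Dnmt3a1-/- and 19.4 CPM in wild type (1.11 ± 0.18, adjusted p = 0.011), which is 1.75% of the list and below the 2.52% of all genes. None of the list was called in cortex Dnmt3a2-/- (57 tested), in cortex Dnmt3a1_delta_N (59) or in the nuclei (56), where 2, 5 and 4 genes had an unadjusted p under 0.05.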

How the data were processed

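RNA was read in 26 libraries from a strand-specific mRNA kit, per the labels' protocols. The authors deposited counts, whole numbers of reads per gene, 1 file a library, from reads aligned with STAR 2.5.4a to build mm9 and counted with HTSeq 0.11.0, per the submitters' processing notes. The strand setting and annotation release are not given in the sources used here, so overlapping or antisense genes may share reads. Lines naming no gene, 21.14% to 36.97% of reads, were left out.

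CPM is a count over the library's gene total. Tests used edgeR 4.0.16 in R 4.3.3: filterByExpr, TMM, a robust quasi-likelihood fit of the groups compared, and Benjamini-Hochberg adjustment over all genes tested. Calls were made below an adjusted p of 0.05, and in wild type comparisons also at 2-fold or more. The SE is the absolute log2 fold change divided by the root of F. Differences of effects were interaction contrasts on shared identifiers. The scripts were tested on simulated data.

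Members, lists and tests were chosen with earlier results of these data known. Members called in a mutant comparison, or with the block in Dnmt3a1_delta_N, are given by library. Of the other pathway genes, up to 3 called ones per direction are named, except 1 that is not reported here. Alternatives were RLE scaling, no filter beyond 1 count, DESeq2 1.42.0, a replicate block, each library left out and all 8 wild type cortex libraries.

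Same-numbered libraries deviated together across genes in cortex Dnmt3a1-/- (correlations 0.237, 0.376 and 0.184) and Dnmt3a1_delta_N (0.373, 0.240 and 0.419). Their numbers were used as pairs in the fits with the replicate block only. All other calls, SEs and adjusted p-values come from fits without the block, which leave such pairing out. By Xist and Y-linked reads, all 13 same-numbered pairs also had 1 sex. No replicate pair agreed within counting noise (chi-square per gene 6.32 to 37.6 over 22 pairs). The other 49 samples of the series were not analysed here.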

Additional observations from a re-analysis of the deposited data

Results flagged for a closer look

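Smad1 had 12.7 CPM in wild type cortex library 3 of the plain series, far below the other 7 wild type cortex libraries. It was 1 such library among 49 members checked, where chance flags about 1 in 20.

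In 7 cases every library of the Dnmt3a1-/- group lay on one side of its wild type in one preparation and on the other side in another. How many of all genes did so was not counted, so the 7 are not read as a result about the members. In the nuclei 3000 of all 15860 genes tested stood fully above wild type and 3107 fully below. The difference between the effects was not tested in any of the 7 cases. The nuclei labelled Dnmt3a1-/- are those in which the Dnmt3a count did not follow the label. Whole cortex minus nuclei, the log2 fold changes differed by -2.22 for Inhba, -0.65 for Bmpr2, 0.34 for Smad1, 0.81 for Grem1 and 3.56 for Wfikkn2. Hippocampus minus nuclei, they differed by 0.19 for Smad1 and 3.95 for Wfikkn2.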

How the results depend on the processing

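Of the 14 members called in cortex Dnmt3a1-/-, 6 (Gdf10, Bmp4, Chrd, Bmp3, Gdf11 and Chrdl1) passed under all 11 alternatives, and no single member changed sign while called. Counts of called members moved with the settings as follows, and the causes were not tested. With the replicate block they were 22 in cortex Dnmt3a1-/- (31% of all genes), 1 in Dnmt3a2-/- (0.345%) and 2 in Dnmt3a1_delta_N (0.749%). In nuclei they were 5 (Inhba, Smad3, Chrd and Bmp1 higher, Nog lower, 4.67% of all genes). For the difference Dnmt3a1_delta_N minus Dnmt3a1-/- they were 2 (2.95%). The block changed no call in hippocampus. In Dnmt3a2-/- and nuclei only 2 pairs exist (correlations 0.111 and 0.297), and in hippocampus the correlations were -0.056, 0.272 and 0.026, so the numbers were not taken as pairs there. With no filter on low counts the counts were 2 in Dnmt3a2-/- (0.277% of all genes), 2 in Dnmt3a1_delta_N (0.0706%), 5 in hippocampus (3.33%) and 2 in nuclei (1.02%). DESeq2 gave 1 in Dnmt3a1_delta_N (0.58% of all genes) and 1 in nuclei (0.414%). Leaving out 1 library at a time gave 9 to 15 in cortex Dnmt3a1-/-, 0 to 3 in Dnmt3a2-/-, 1 to 3 in hippocampus, 0 to 4 in nuclei (4 without mutant library 2) and 0 to 1 for the difference of effects. Where that leaves 1 library in a group, it is assumed to vary like the other group.

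Inha and Acvr2b were not called by DESeq2 (adjusted p = 0.066 and 0.069). Inhba rested on 3 counts in 1 cortex library, and Bmp5, Tgfb1 and Smad6 did not pass the count filter in nuclei.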
